A study of Rattus norvegicus with 12 samples.

Results

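The heat shock proteins and their partner chaperones were described in rat liver during a carbon tetrachloride model of cirrhosis. Genes were taken by symbol: those beginning with Hspa, Hspb, Hsp90, Hsph, Dnaja, Dnajb, Dnajc or Bag, together with Hspd1, Hspe1, Tcp1 and the numbered Cct genes, leaving out Hspa5, Dnajb9 and Dnajc3. The rule found 65 genes among 13912 with a single symbol on the array, on 98 probe sets, and for each gene the probe set with the highest mean log2 signal was kept. Of these, 55 had a mean signal above the filter on dim probe sets and were among the 10319 genes tested.

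Sprague-Dawley rat liver was hybridised to 12 Affymetrix arrays, 3 for each of 4 groups: normal tissue at 0h, and tissue taken 3, 6 or 9 weeks into the carbon tetrachloride model. Carbon tetrachloride is a solvent that hepatocytes turn into a radical that injures them. The tissue came from the middle of the right lobe, the labels give every group as 12-week-old animals, and the only controls were the 0h livers, with no vehicle-treated or time-matched group among the samples. Arrays within a group are labelled as technical replicates. The sources used here do not say how many animals were sampled or of which sex, and p-values therefore cover the spread between arrays and not between animals.

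Heat shock proteins bind proteins that are unfolded or still folding. Hsp70 enzymes hold and release them in cycles driven by ATP, J proteins deliver clients and start the cycle, and exchange factors such as the Bag domain proteins and Hsph1 end it. Hsp90 finishes the folding of kinases and steroid receptors, small heat shock proteins hold aggregating proteins without using ATP, and the ring-shaped chaperonins (TRiC in the cytosol, Hspd1 with Hspe1 in mitochondria) enclose a protein while it folds. Many of these genes are induced by heat shock factor, which binds inverted repeats of GAA. Not all 65 are cytosolic: Hspa9, Hspd1, Hspe1, Dnaja3, Dnajc15 and Dnajc30 are mitochondrial, Dnajb11 and Dnajc10 belong to the endoplasmic reticulum, and Hspb11, now named Ift25, is a subunit of the transport particle of cilia.

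Signals are in the authors' scaled units. Changes are differences of group means of log2(signal + 16), with their standard error (SE), a scale that understates the change of dim genes. The words rose and fell are kept for changes of at least 2-fold with a limma p under 0.05 after Benjamini-Hochberg adjustment over all 10319 genes. A gene that passed the adjusted p with a smaller change is said to have shifted. An array signal cannot be set against that of another probe set, so levels are compared only within a gene. Bulk tissue cannot tell fewer cells of a type from less RNA per cell.

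A few chaperone genes rose and none fell in any of the 5 comparisons. At 3 weeks 2 of 55 rose, Hspb1 and Hsp90aa1, where 2.93% of all genes tested rose and 1.29% fell. At 6 weeks Hspb1 and Hspb8 rose (2 of 55, where 5.16% of all genes rose and 4.44% fell), and at 9 weeks Hspb1, Hspb8 and Dnajc17 rose (3 of 55, where 6.33% rose and 3.62% fell). Between 3 and 6 weeks 4 rose, Hspb1, Hspb8, Dnajb11 and Dnajc17, where 3.21% of all genes rose and 4.31% fell. Between 6 and 9 weeks none was called, where 2.52% of all genes were, 1.94% rising and 0.581% falling. In that step limma gave 13 members up and 11 down at an unadjusted p under 0.05, none of them by 2-fold, and a test against a 1.2-fold change called 2. Falls by the unadjusted p numbered 8 at 3 weeks, 10 at 6 weeks and 9 at 9 weeks, again none by 2-fold. Without 0h replicate 1, however, Hspb7 fell at 3, 6 and 9 weeks against 0h (log2 change -1.27, -1.28 and -1.16). Over the whole course 4 of 55 members (7.27%) changed by the moderated F test and at least 1 change of 2-fold, against 14.2% of all genes tested. Taking rises and falls together, 3.64%, 3.64%, 5.45% and 7.27% of members were called at 3, 6 and 9 weeks against 0h and from 3 to 6 weeks, beside 4.22%, 9.59%, 9.95% and 7.52% of all genes, so with both directions counted no share of members stood above that of all genes.

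Smaller shifts were common, as they were over the whole array. By adjusted p alone, 43.6%, 45.5% and 50.9% of members passed at 3, 6 and 9 weeks against 0h, beside 42.5%, 54.5% and 55.7% of all genes. From 3 to 6 weeks 45.5% passed, beside 48.9% of all genes, and from 6 to 9 weeks 32.7%, beside 25.9%. At a threshold of 1.5-fold with the adjusted p, 6, 10 and 9 of 55 passed against 0h, beside 13.8%, 24.6% and 25.3% of all genes, then 7 from 3 to 6 weeks and 1 from 6 to 9 weeks, beside 19.9% and 7.68%. By direction, 18 members were higher and 6 lower at 3 weeks (22.5% and 20% of all genes), but with arrays centred on their medians the counts were 7 higher and 9 lower. That centring moved the median change of all genes at 3 weeks from 0.01 to -0.09, so changes of this size at 3 weeks depend on the scaling. At 6 weeks 18 members were higher and 7 lower (30% and 24.4% of all genes), and at 9 weeks 21 and 7 (32.9% and 22.8%). From 3 to 6 weeks 15 were higher and 10 lower (26.3% and 22.7% of all genes). From 6 to 9 weeks 10 were higher and 8 lower (14.8% and 11% of all genes), or 5 and 7 with centred arrays. The median member change against 0h was 0.04, 0.06 and 0.06 at 3, 6 and 9 weeks, beside 0.01, 0.03 and 0.07 over all genes tested.

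**Figure D1:**
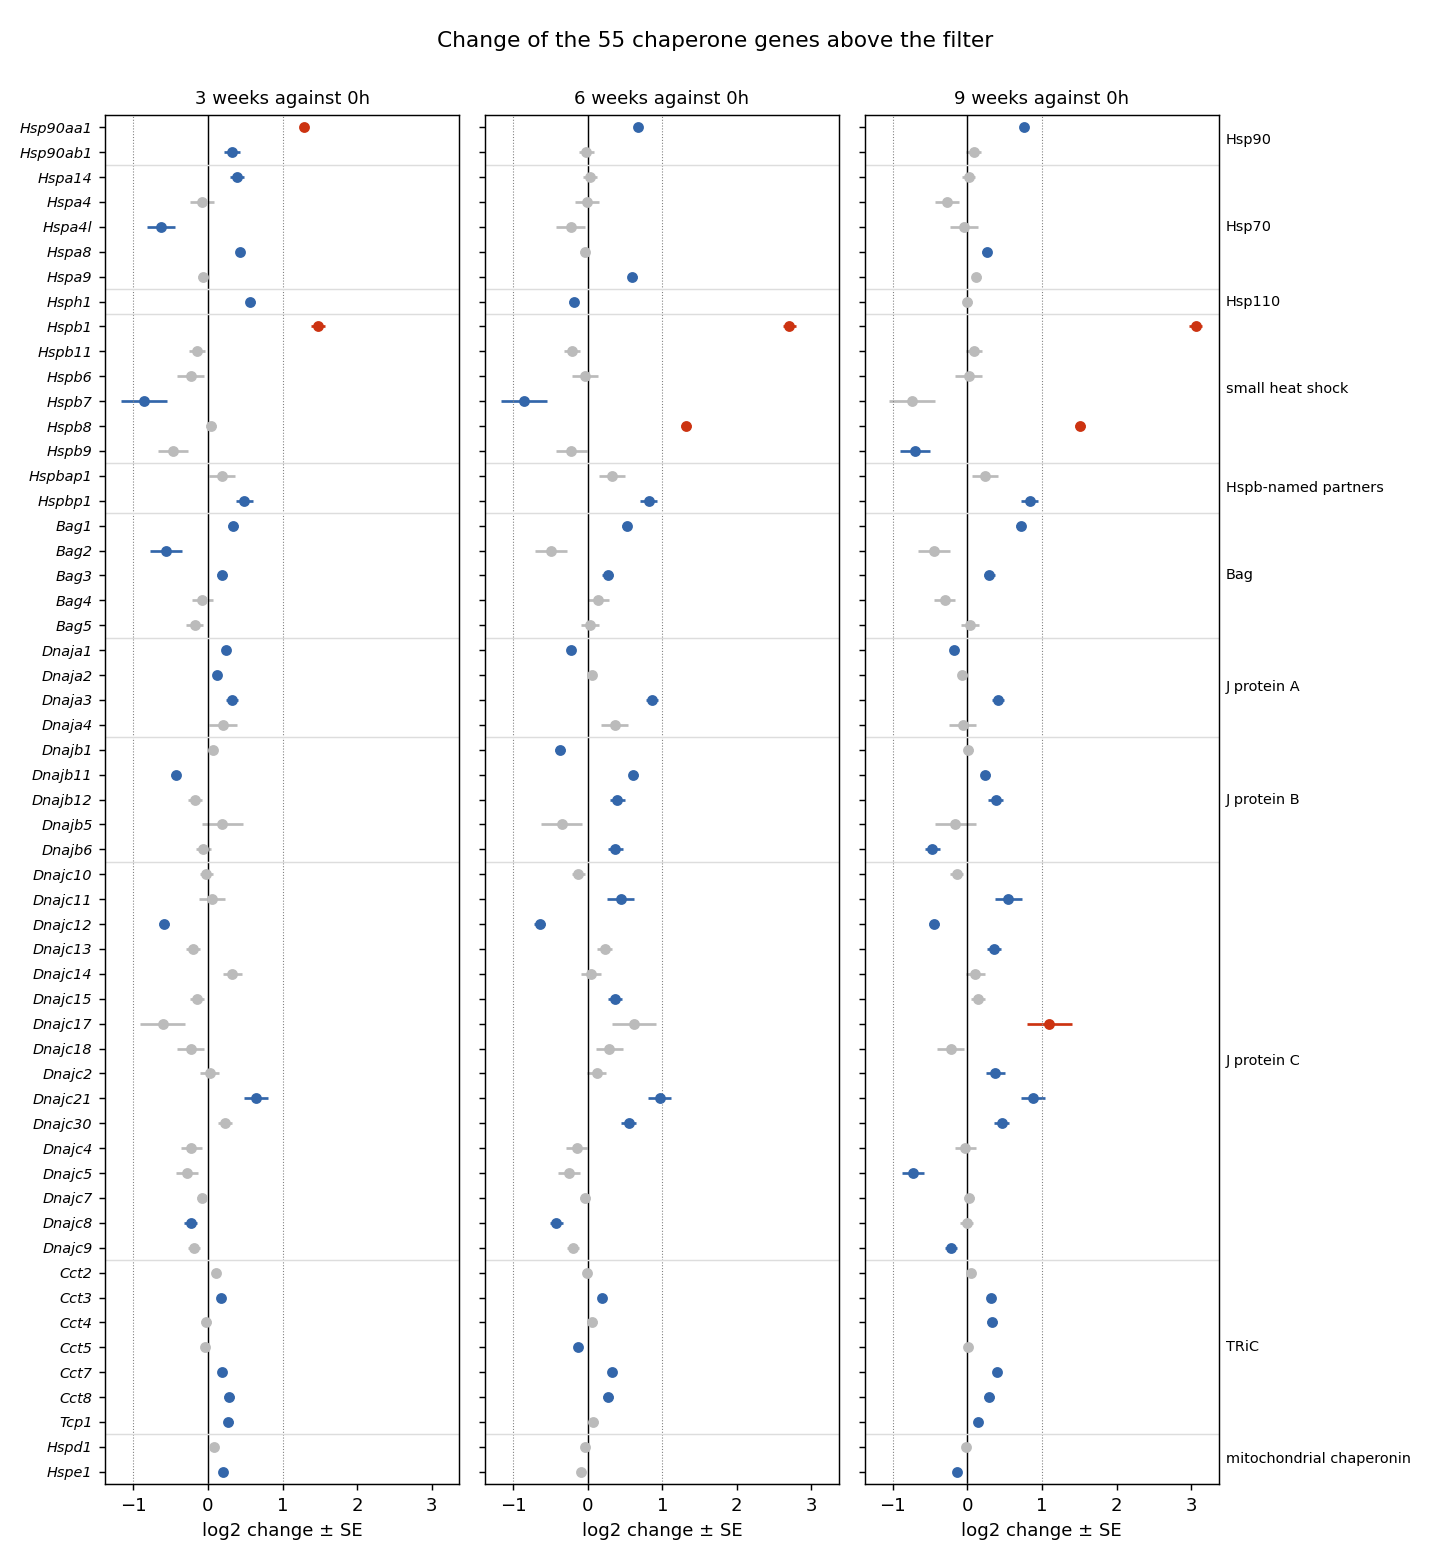
Log2 change against 0h (horizontal axis) of the 55 chaperone genes above the filter at each time. Points are fitted changes, bars the SE, red points passed adjusted p under 0.05 with at least 2-fold, blue points passed the adjusted p only, grey points neither, and dotted lines mark 2-fold; the red points are Hspb1 at all 3 times, Hsp90aa1 at 3 weeks, Hspb8 at 6 and 9 weeks and Dnajc17 at 9 weeks.

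The stretch before the start of a gene is where heat shock factor motifs would lie, and the promoters of Hspb1 and Hspb8, whose transcripts rose, and of Hsph1 and Hspa8, which shifted up at 3 weeks, are printed for that reason. They are the 250 bases before the annotated start in RefSeq (build GRCr8). Capitals mark each match to GAANNTTC or TTCNNGAA, each its own reverse complement, and to the longer motif, which is GAANNTTC followed by NNGAA or, as its reverse complement, TTCNNGAA followed by NNTTC, so that short motifs overlap inside it. Of the 65 genes, 54 were in the promoter table, and Hsp90aa1 was not.
Hspb1, chr12:26432302-26432551, minus strand: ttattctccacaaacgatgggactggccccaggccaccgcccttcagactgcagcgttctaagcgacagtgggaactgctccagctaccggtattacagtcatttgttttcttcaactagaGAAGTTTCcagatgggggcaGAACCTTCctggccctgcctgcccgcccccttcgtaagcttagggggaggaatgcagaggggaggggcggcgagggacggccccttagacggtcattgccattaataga
Hspb8, chr12:45837058-45837307, plus strand: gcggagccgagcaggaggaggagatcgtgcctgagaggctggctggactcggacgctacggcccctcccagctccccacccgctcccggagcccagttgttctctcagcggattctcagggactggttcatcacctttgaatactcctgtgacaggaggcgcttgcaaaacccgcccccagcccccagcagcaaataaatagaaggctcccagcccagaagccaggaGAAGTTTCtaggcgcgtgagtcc
Hsph1, chr12:10427118-10427367, plus strand: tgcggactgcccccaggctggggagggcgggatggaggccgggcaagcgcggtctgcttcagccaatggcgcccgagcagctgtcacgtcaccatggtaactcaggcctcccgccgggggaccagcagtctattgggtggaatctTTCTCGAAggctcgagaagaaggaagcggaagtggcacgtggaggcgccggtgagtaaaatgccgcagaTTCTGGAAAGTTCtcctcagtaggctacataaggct
Hspa8, chr8:50080264-50080513, plus strand: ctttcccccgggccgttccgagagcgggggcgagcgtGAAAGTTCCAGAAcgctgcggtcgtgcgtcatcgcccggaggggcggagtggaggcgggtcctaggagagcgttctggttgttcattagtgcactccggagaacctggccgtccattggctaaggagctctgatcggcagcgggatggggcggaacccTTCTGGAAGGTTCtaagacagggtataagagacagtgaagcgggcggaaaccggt
Hspe1, chr9:64084256-64084285, plus strand: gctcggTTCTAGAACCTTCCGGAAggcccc
The Hspe1 line is the 30-base stretch that begins 71 bases before its start, shown because the windows of Hspe1 and Hspd1 overlap and hold these same letters. A short motif was present in 15 of the 54 promoters (27.8%), against 13.5% of all 33469 promoters in the table. The long motif was present in 4 (7.41%), those of Hsph1, Hspa8, Hspd1 and Hspe1, against 0.663% of all promoters. Hspb1 held 2 short motifs, at positions -129 and -109, and Hspb8 held 1, at -23, while Dnajb1, the J protein most often paired with inducible Hsp70, held 1 at -11. Dnajb11 and Dnajc17, which were also called as rising, held none, while Hspb6, which passed no test, held 2. These are letters in a window and do not show binding.

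The small heat shock proteins held the largest changes. Hspb1, which binds aggregating proteins and actin filaments, rose at every time and rose again from 3 to 6 weeks. Hspb8, which forms a complex with Bag3 that passes misfolded proteins to autophagy, rose at 6 and 9 weeks but not at 3 weeks. The other 4 measured members (Hspb6, Hspb7, Hspb9 and Hspb11) did not rise or fall.

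Hspb1 had signals of 181.9, 224.8 and 200.9 at 0h, 571.2, 548.1 and 651.3 at 3 weeks, 1488.0, 1418.7 and 1313.7 at 6 weeks, and 1882.0, 1869.5 and 1659.6 at 9 weeks. The 4 groups did not overlap, and the order was that of time. The group means were 202.5 ± 21.5, 590.2 ± 54.2, 1406.8 ± 87.8 and 1803.7 ± 125 (SD, n = 3 arrays each). The log2 change against 0h was 1.47 at 3 weeks (adjusted p = 2.17e-09), 2.71 at 6 weeks (1.925e-13) and 3.06 at 9 weeks (5.198e-14), each with an SE of 0.09. From 3 to 6 weeks the change was 1.23 (adjusted p = 7.065e-09), and from 6 to 9 weeks Hspb1 shifted up by a further 0.35 (0.00909). In the authors' deposited table the mean of the log2 ratios of Hspb1 was 1.33, 2.66 and 2.98 at the 3 times.

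Hspb8 had signals of 1686.3, 1933.6 and 1625.2 at 0h and of 1809.8, 1898.5 and 1671.9 at 3 weeks. They were 4136.5, 4659.1 and 4286.0 at 6 weeks and 4973.5, 5084.6 and 4913.8 at 9 weeks. The 0h and 3-week groups overlapped, and every array at 6 and 9 weeks lay above both. The change was 0.04 at 3 weeks (adjusted p = 0.68), 1.31 at 6 weeks (3.591e-11) and 1.51 at 9 weeks (6.403e-12), with an SE of 0.07, and 1.27 from 3 to 6 weeks (6.275e-11). A second Hspb8 probe set gave 0.39, 1.5 and 1.35.

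Hspb7, a small heat shock protein best known from heart and skeletal muscle, lay near the filter, with signals of 82.8, 191.0 and 256.9 at 0h and between 66.0 and 103.1 on the other 9 arrays. It shifted down by 0.85 at 3 weeks (adjusted p = 0.0343) and by 0.85 at 6 weeks (0.0267), while at 9 weeks its change was -0.74 (0.0508). One 0h array was as low as the treated arrays. Leaving out 0h replicate 2 or 3, or a single array of the treated group, ended the shifts, which were lost in 6 alternatives at 3 weeks and 4 at 6 weeks. Hspb9, known from testis, shifted down by 0.71 at 9 weeks (adjusted p = 0.00683).

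Muscle and fibroblast-like cells also express small heat shock proteins, so markers of other cells are given here. The summed signal of 8 stellate cell and myofibroblast markers was 4536 to 4748 at 0h, 13333 to 14513 at 3 weeks, 7017 to 7493 at 6 weeks and 7554 to 7774 at 9 weeks, all 8 above the filter. The sum was highest at 3 weeks, where Col3a1, a collagen chain, carried most of it, with signals of 10253.8, 10994.9 and 11227.0. Single markers differed: Tagln, of contractile cells, was 1.23 above 0h at 9 weeks and 0.81 at 3 weeks. Des, of muscle and stellate cells, was 0.81 and 0.54 above 0h in the same order. Of 10 smooth and striated muscle markers 6 were above the filter. The sum of all 10 was 1377 to 1499 at 0h and 1676.5 to 1794 at 3 weeks, where it was highest. It was 1150 to 1372 at 6 weeks and 1304 to 1496 at 9 weeks. Cnn1 and Actg2 of smooth muscle and Acta1 and Myl1 of skeletal muscle were below the filter. The sum of 7 bile duct markers, 4 of them above the filter, was 1516 to 1567 at 0h, 1727 to 1873 at 3 weeks, 2556 to 3036 at 6 weeks and 2578 to 2777 at 9 weeks. At 6 weeks that sum was carried by Spp1, a secreted matrix protein (log2 change 3.01): 1 of the 4 measured markers was higher by adjusted p and 2 were lower, with a median change of -0.27. At 9 weeks all 4 were higher, with a median of 0.73. The 8 macrophage markers, all above the filter, summed to 13773 to 13943 at 0h, 18289 to 18977 at 3 weeks, 18179 to 18635 at 6 weeks and 22674 to 22904 at 9 weeks. Gpnmb, a membrane glycoprotein, carried much of this sum, with changes of 1.45, 2.63 and 3.18. At 6 weeks 2 of the 8 macrophage markers were higher by adjusted p and 5 were lower, 3 of them by 2-fold, with a median change of -0.57. The 11 hepatocyte markers, all above the filter, summed to 296837 to 340085 at 0h and 288150 to 323769 at 3 weeks. They summed to 239897 to 273326 at 6 weeks and 240588 to 267112 at 9 weeks, so hepatocyte transcripts were present in every group, as the liver label says. By adjusted p, 2 of the 11 were higher and 9 lower at 6 weeks and again at 9 weeks, with median changes of -0.34 and -0.30. The bile duct sum was higher at 6 and 9 weeks than at 0h and 3 weeks, while the macrophage sums of 3 and 6 weeks overlapped and that of 9 weeks was highest. The part of any of these cells in the rises of Hspb1 and Hspb8 was not tested.

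**Figure D2:**
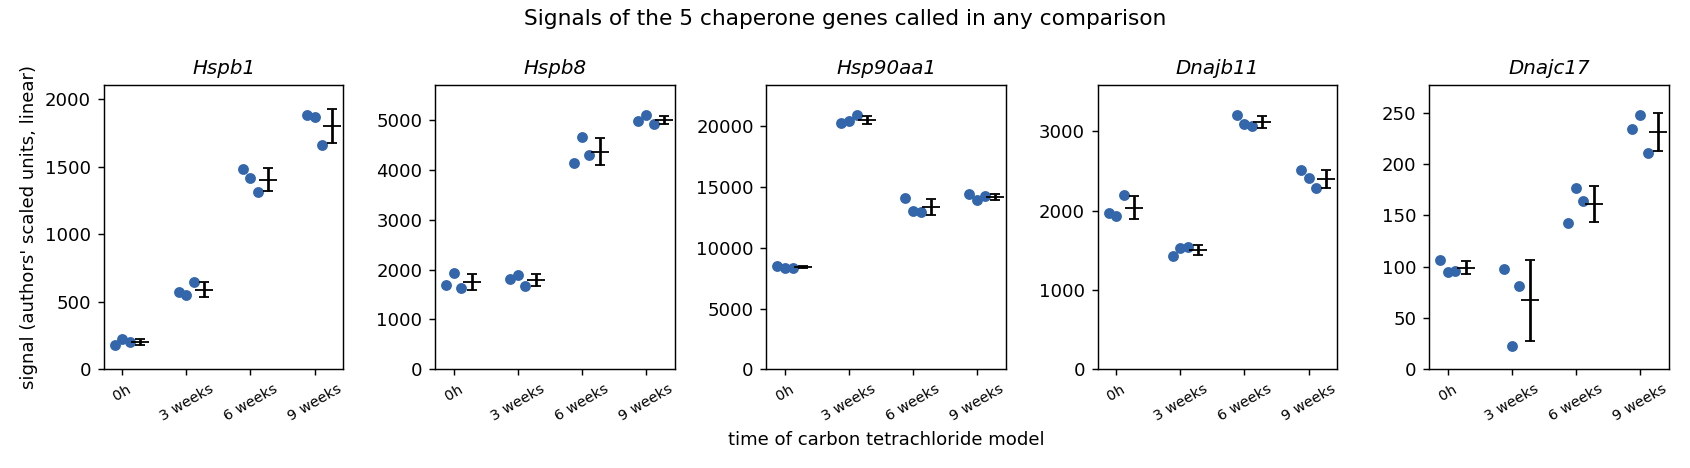
Signal in the authors' scaled units (vertical axis, linear, from 0) of the 5 chaperone genes called in any comparison, by group. Points are arrays and black bars the mean ± SD of 3 arrays; Hspb1 climbs through all 4 groups, Hspb8 is high at 6 and 9 weeks, Hsp90aa1 is highest at 3 weeks, and Dnajb11 is lowest at 3 weeks and highest at 6 weeks.

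Hsp90 and the main cytosolic Hsp70 had another course, with their highest signals at 3 weeks. Hsp90aa1, the inducible cytosolic Hsp90, rose at 3 weeks and stayed shifted up at 6 and 9 weeks. Hspa8, the constitutive cytosolic Hsp70, and Hsph1, its exchange factor of the Hsp110 family, shifted up at 3 weeks. All 3 shifted down from 3 to 6 weeks.

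Hsp90aa1 had signals of 8489.1, 8334.2 and 8371.8 at 0h, 20276.6, 20403.6 and 20881.4 at 3 weeks, 14117.8, 13047.9 and 12953.0 at 6 weeks, and 14416.6, 13908.3 and 14257.2 at 9 weeks. The 3-week arrays were above all others, and the 6-week and 9-week arrays overlapped each other but not 0h. The change was 1.29 at 3 weeks (adjusted p = 2.495e-13), 0.67 at 6 weeks (3.89e-10) and 0.76 at 9 weeks (8.903e-11), with an SE of 0.04, and -0.62 from 3 to 6 weeks (1.358e-09). A second bright probe set gave 1.15, 0.69 and 0.77. The other, with a mean signal of 114.25, gave -0.29, -1.23 and -0.49. The mean of all 3 probe sets was 0.71 at 3 weeks, which passed the adjusted p but was under 2-fold. With that mean the shift at 6 weeks did not pass the test. Hsp90ab1, the constitutive form, shifted up by 0.32 at 3 weeks (adjusted p = 0.0167), a shift lost in 5 of 23 alternatives. These were arrays centred on their medians, no intensity trend, and leaving out 0h replicate 3, 3-week replicate 2 or 3-week replicate 3. Its changes of -0.02 and 0.08 at 6 and 9 weeks did not pass the test. Another bright Hsp90ab1 probe set gave 0.33, 0.22 and 0.15, with every array at the 3 times above those at 0h.

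Hsph1 had signals of 2165.7, 1881.4 and 2114.4 at 0h, 2867.4, 3155.3 and 3130.8 at 3 weeks, 1910.8, 1690.7 and 1798.4 at 6 weeks, and 2080.3, 2082.2 and 1983.2 at 9 weeks. Only the 3-week arrays stood clear of 0h. The change was 0.57 at 3 weeks (adjusted p = 2.066e-06), -0.19 at 6 weeks (0.0197) and 0.00 at 9 weeks, with an SE of 0.06. That at 6 weeks was lost in 4 of 23 alternatives, among them those without 0h replicate 1 or 3 and without 6-week replicate 2. From 3 to 6 weeks the change was -0.76 (3.112e-08). On a second Hsph1 probe set the changes against 0h were 0.61, -0.11 and -0.39. Hspa8 had signals of 17620.6, 17945.1 and 16719.7 at 0h, 22613.4, 23500.0 and 24233.2 at 3 weeks, 18798.4, 16065.6 and 16016.5 at 6 weeks, and 21250.5, 19745.5 and 21605.6 at 9 weeks. Its 6-week arrays overlapped 0h, and its 3-week and 9-week arrays lay above both. The change of Hspa8 was 0.43 at 3 weeks (adjusted p = 1.767e-05), -0.04 at 6 weeks (0.563) and 0.26 at 9 weeks (0.0012), with an SE of 0.06.

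Other members of the Hsp70 cycle were near 0h or shifted little. Hspa14, an Hsp70 relative that sits on the ribosome, shifted up by 0.39 at 3 weeks (adjusted p = 0.00208) and changed by 0.03 and 0.02 later, which did not pass the test. Hspa4l, related to Hsph1, shifted down by 0.63 at 3 weeks (0.0141). Its signals were 187.3, 162.1 and 210.0 at 0h and 151.3, 89.1 and 109.7 at 3 weeks, so the groups did not overlap, but the shift was lost without 0h replicate 3 or 3-week replicate 2. With arrays centred on their medians, the 7 members still higher at 3 weeks by adjusted p were Hspb1, Hsp90aa1, Hsph1, Hspa8, Hspa14, Hspbp1 and Dnajc21. At 3 weeks the sum of the stellate cell markers given above was also at its highest, though Tagln and Des were not. The part of those cells in these shifts was not tested.

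The stress-inducible Hsp70 genes Hspa1a and Hspa1b share their probe sets, carry 2 symbols there and so fell outside the rule; they were not tested. One shared probe set had signals of 175.7, 114.2 and 188.6 at 0h, 278.0, 226.5 and 268.8 at 3 weeks, 400.8, 387.6 and 404.8 at 6 weeks, and 342.8, 321.4 and 340.4 at 9 weeks, with differences from 0h of 0.66, 1.26 and 1.03. The other had differences of 0.06, 0.36 and 0.37, with 0h signals of 276.8, 229.8 and 164.9 and 6-week signals of 259.2, 237.7 and 377.8. The pair disagree in size at every time. No level of the inducible Hsp70 is therefore given for either gene alone.

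**Figure D3:**
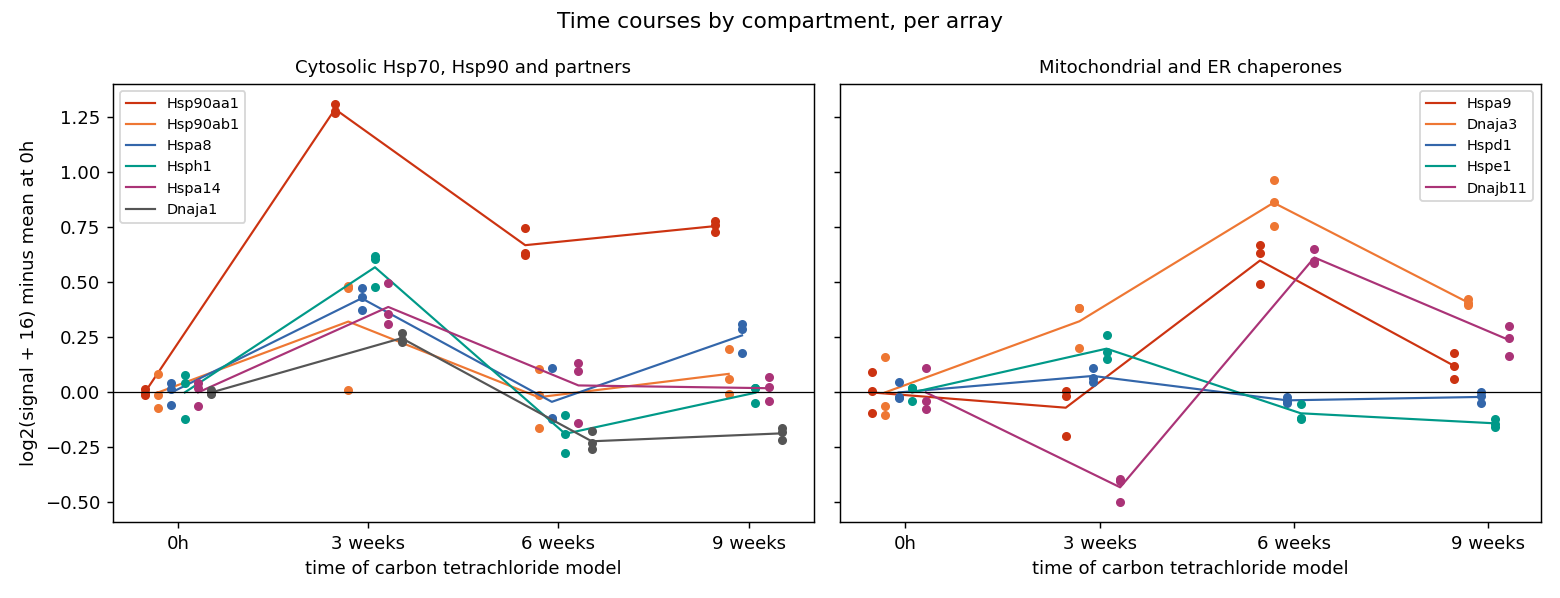
Course of single genes, as log2(signal + 16) minus the gene's mean at 0h (vertical axis) by group. Points are arrays and lines join group means; the left panel holds cytosolic genes, of which Hsp90aa1 and Hsph1 peak at 3 weeks, and the right panel mitochondrial and endoplasmic reticulum genes, of which Hspa9, Dnaja3 and Dnajb11 peak at 6 weeks while Hspd1 and Hspe1 stay within 0.20 of 0h in group mean.

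Organelle chaperones had other courses. Dnajb11, a J protein of the endoplasmic reticulum that serves Hspa5, shifted down at 3 weeks and up at 6 weeks. Hspa9, the mitochondrial Hsp70, and Dnaja3, its J protein, were highest at 6 weeks. Hspd1 and Hspe1, the mitochondrial chaperonin and its lid, moved little.

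Dnajb11 had signals of 1976.1, 1930.9 and 2199.3 at 0h, 1433.1, 1533.7 and 1545.2 at 3 weeks, 3200.8, 3086.5 and 3064.0 at 6 weeks, and 2509.4, 2417.6 and 2281.4 at 9 weeks. No 2 groups overlapped, and the lowest was that at 3 weeks. The change was -0.43 at 3 weeks (adjusted p = 1.744e-05), 0.61 at 6 weeks (1.275e-07) and 0.24 at 9 weeks (0.0024), with an SE of 0.06. From 3 to 6 weeks it rose by 1.04 (1.653e-10), and from 6 to 9 weeks it shifted by -0.37 (0.000149).

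Hspa9 had signals of 4540.7, 3987.4 and 4275.7 at 0h, 4215.5, 3712.8 and 4279.6 at 3 weeks, 6797.8, 6624.9 and 6001.1 at 6 weeks, and 4832.1, 4627.3 and 4451.8 at 9 weeks. The 6-week arrays were above all others. The change was -0.07 at 3 weeks (adjusted p = 0.416), 0.60 at 6 weeks (5.347e-07) and 0.12 at 9 weeks (0.125), and a second bright probe set gave -0.10, 0.62 and -0.52, so the probe sets disagree in sign at 9 weeks. With all 4 probe sets averaged, the shift at 6 weeks did not pass the test. Dnaja3 had signals of 1156.3, 1351.5 and 1122.9 at 0h, 1578.4, 1579.8 and 1389.3 at 3 weeks, 2047.4, 2373.5 and 2207.5 at 6 weeks, and 1625.6, 1602.1 and 1593.2 at 9 weeks. Its 3 time groups were above 0h and the 6-week arrays highest. The change of Dnaja3 was 0.32 (adjusted p = 0.00257), 0.86 (4.317e-08) and 0.41 (0.000214), the first of which was lost with arrays centred on their medians.

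Hspe1 shifted up by 0.20 at 3 weeks (adjusted p = 0.000863), a shift lost with centred arrays, and changed by -0.14 at 9 weeks (0.00762), which quantile normalization turned to 0.07. Hspd1 changed by 0.07, -0.04 and -0.02 at the 3 times, none of which passed the test. Dnajc15, a mitochondrial J protein of the import motor, shifted up by 0.36 at 6 weeks (0.00384). Dnajc30, another mitochondrial J protein, shifted up by 0.55 at 6 weeks (0.000139) and 0.46 at 9 weeks (0.000725).

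The 6-week arrays also stood apart in markers of other cells. Proliferation markers (7, all above the filter) summed to 2771 to 3109 at 0h, 3088 to 3228 at 3 weeks, 4418 to 5086 at 6 weeks and 4340 to 4378 at 9 weeks. Red cell markers (3, all above the filter) summed to 58186 to 64849, 54718 to 58282, 12453 to 13859 and 32163 to 34086 in the same order. Endothelial markers (8, all above the filter) summed to 9515 to 10209, 10689 to 10992, 5333 to 5772 and 7406 to 7986, and lymphocyte markers (7, of which 5 were above the filter) to 1638 to 1853, 2053 to 2313, 1014 to 1169 and 2052 to 2438. The red cell, endothelial and lymphocyte sums were thus lowest at 6 weeks, where Hspa9, Dnaja3 and Dnajb11 were highest, and their part in these values was not tested.

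Of the remaining J proteins described here, Dnajc17 rose, and others shifted in either direction or passed no test. Dnaja1, a main partner of Hspa8, shifted up by 0.25 at 3 weeks (adjusted p = 6.853e-05) and down by 0.22 and 0.19 at 6 and 9 weeks. The first was lost with centred arrays and the later pair with quantile normalization, while the change of -0.47 from 3 to 6 weeks had an adjusted p of 2.153e-08. Dnajb1, which works with the stress-inducible Hsp70, had signals of 1483.4, 1568.9 and 1383.6 at 0h and 1157.6, 1095.7 and 1163.2 at 6 weeks. Its 6-week arrays were below all 0h arrays, a change of -0.37 (6.919e-05). Its changes of 0.06 and 0.01 at 3 and 9 weeks did not pass the test. On a second Dnajb1 probe set the changes against 0h were 0.09, -0.30 and -0.22 at 3, 6 and 9 weeks. Dnajb6, which holds back aggregation of polyglutamine proteins, shifted up by 0.37 at 6 weeks (0.00498) and down by 0.47 at 9 weeks (0.000781), a step of -0.84 between them. A second Dnajb6 probe set gave 0.20 and 0.12 at those times, and the shift at 9 weeks was lost with the 2 averaged.

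Dnajc17, a J protein with an RNA recognition motif, rose at 9 weeks. Its signals were 106.8, 95.4 and 95.7 at 0h, 97.4, 23.1 and 81.1 at 3 weeks, 142.6, 177.2 and 164.4 at 6 weeks, and 234.4, 247.5 and 211.1 at 9 weeks. The 6-week and 9-week arrays were above 0h, and 1 array at 3 weeks was far below the other 2. The change was -0.61 at 3 weeks (adjusted p = 0.114), 0.62 at 6 weeks (0.092) and 1.10 at 9 weeks (0.00493), with an SE of 0.30, and 1.23 from 3 to 6 weeks (0.00252). Without 3-week replicate 2 the last value was 0.75 and no longer 2-fold, and with log2(signal + 64) the changes were 0.83 from 3 to 6 weeks and 0.85 at 9 weeks. A second, dimmer probe set of Dnajc17, below the filter, gave 0.26, -0.74 and -0.79.

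Of the 16 measured members of the J protein C class, 1 shifted up (Dnajc21) and 2 down (Dnajc8 and Dnajc12) at 3 weeks. At 6 weeks 4 shifted up (Dnajc11, Dnajc15, Dnajc21 and Dnajc30) and 2 down, the same pair as at 3 weeks. At 9 weeks 5 shifted up beside the rise of Dnajc17 (Dnajc2, Dnajc11, Dnajc13, Dnajc21 and Dnajc30) and 3 down (Dnajc5, Dnajc9 and Dnajc12). Counting both calls, 1, 4 and 6 of 16 were thus higher at 3, 6 and 9 weeks, where 22.5%, 30% and 32.9% of all genes were, and 2, 2 and 3 lower, where 20%, 24.4% and 22.8% were. Some of these shifts depended on single arrays. That of Dnajc8 at 3 weeks was lost in 10 of 23 alternatives, including each that left out 1 array of 0h or 3 weeks, and that of Dnajc11 at 6 weeks in 13, among them those without 0h replicate 2 or 3 and without 6-week replicate 1 or 3. At 9 weeks the shift of Dnajc2 was lost in 6 alternatives (0h replicates 1 and 3 and 9-week replicates 2 and 3 among the arrays left out) and that of Dnajc9 in 5 (0h replicates 2 and 3 and 9-week replicates 2 and 3). Dnajc21, a J protein of ribosome assembly, shifted up by 0.64, 0.96 and 0.87 at 3, 6 and 9 weeks. Dnajc12, which in humans binds the aromatic amino acid hydroxylases, shifted down by 0.59, 0.65 and 0.45. Dnajc8, associated with the spliceosome, shifted down by 0.42 at 6 weeks, and Dnajc5, the cysteine string protein of vesicle release, by 0.73 at 9 weeks (adjusted p = 0.000494). Dnajc13, of endosomes, shifted up by 0.36 at 9 weeks. Dnajb12, a J protein in the membrane of the endoplasmic reticulum, shifted up by 0.40 and 0.38 at 6 and 9 weeks.

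Of the 5 Bag domain genes, Bag1 and Bag3 shifted up at all 3 times, and Bag2 shifted down at 3 weeks by 0.56 (adjusted p = 0.042). The Bag2 shift was lost in 8 of 23 alternatives, among them those without 0h replicate 1 or 3 and without 3-week replicate 1 or 2. Bag1, an exchange factor that links Hsp70 to the proteasome, had signals of 1197.6, 1349.5 and 1221.9 at 0h, 1517.5, 1587.4 and 1642.3 at 3 weeks, 1867.1, 1763.8 and 1790.8 at 6 weeks, and 2141.9, 2180.8 and 1889.6 at 9 weeks. The 4 groups did not overlap. Its change was 0.33, 0.52 and 0.71 (adjusted p = 8.448e-08 at 9 weeks), and the shift at 3 weeks was lost with centred arrays. Hspbp1, which releases the nucleotide of Hsp70 and holds back its ubiquitination, shifted up by 0.49, 0.82 and 0.84. Bag3, the partner of Hspb8, shifted up by 0.19 (adjusted p = 0.049), 0.27 and 0.29 on its bright probe set. The mean with a second probe set below the filter was -0.10, -0.09 and -0.07, none of which passed the test. The shift of Bag3 at 3 weeks was lost in 16 of 23 alternatives, among them leaving out any 1 of the 3-week arrays, 0h replicate 1 or 0h replicate 2.

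The chaperonin TRiC, which folds actin and tubulin, had 7 measured subunits. At 3 weeks 4 of 7 shifted up (Cct3, Cct7, Cct8 and Tcp1, where 22.5% of all genes were higher), all lost with centred arrays. At 6 weeks 3 shifted up (Cct3, lost with centred arrays, Cct7 and Cct8, where 30% of all genes were higher). Cct5 shifted down by 0.13 at 6 weeks (24.4% of all genes were lower), a shift lost in 7 of 23 alternatives, among them those without 0h replicate 1, 6-week replicate 1 or 6-week replicate 3. At 9 weeks 5 of 7 shifted up (32.9% of all genes were higher), with a median change of 0.29 beside 0.07 over all genes. Cct7 had signals of 2738.3, 2618.5 and 2481.8 at 0h and 3455.6, 3433.3 and 3425.2 at 9 weeks. Its 9-week arrays were above all 0h arrays, a change of 0.39 (adjusted p = 3.946e-06). At 9 weeks Cct4 shifted up by 0.33, Cct3 by 0.32, Cct8 by 0.29 and Tcp1 by 0.14, the last lost in 11 of 23 alternatives. On a second Cct8 probe set the changes against 0h were 0.60, 0.89 and 0.48 at 3, 6 and 9 weeks. No subunit reached 2-fold.

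At 9 weeks the control probe sets for RNA length also stood apart: the ratio of 3′ to 5′ signal was 3.24 to 3.80 for actin, against 2.15 to 2.73 on the other arrays. For Gapdh it was 1.39 to 1.43, against 1.08 to 1.28. The part of RNA quality in the 9-week values of Hspb1, Hspb8, Dnajc17, Bag1 and TRiC was not tested.

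The 10 members below the filter were Hspa12a, Hspa12b, Hspa1l, Hspa2, Dnajb3, Dnajb7, Dnajb13, Dnajc6, Hspb2 and Hspb3. Their signals ran from 1.4 to 110.6 with a median of 18.1, and they were not tested. Dnajc6 lay just under the filter, with a mean log2 value of 6.50, and Hspb7 inside it at 6.86. Hspa1l and Hspa2, which are known from testis, had median signals of 2.8 and 15.45.

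A list of 35 co-chaperones and regulators outside the rule was set beside these genes, of which 31 were measured. At 3 weeks 3 of 31 rose (Hyou1, Serpinh1 and Fkbp5), at 6 weeks 2 (Hyou1 and Fkbp5) and at 9 weeks 3 (Hyou1, Fkbp5 and Cryab), and none fell against 0h, beside the background shares given above for all genes. By adjusted p alone, 12 were higher and 5 lower at 3 weeks (22.5% and 20% of all genes), 13 and 4 at 6 weeks (30% and 24.4%), and 17 and 8 at 9 weeks (32.9% and 22.8%).

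Hyou1, the Hsp110 relative of the endoplasmic reticulum, had signals of 440.6, 423.2 and 498.2 at 0h, 1112.2, 1087.9 and 1134.3 at 3 weeks, 3175.7, 2718.0 and 2582.8 at 6 weeks, and 2250.2, 2214.1 and 2075.4 at 9 weeks. All 4 groups were apart and the 6-week arrays highest. The change was 1.27, 2.59 and 2.23 (adjusted p = 1.664e-09, 3.546e-14 and 3.06e-13), and 0.87 at 3 weeks with its probe sets averaged. At 3 weeks, where Hyou1 rose, Dnajb11 of the same compartment shifted down.

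Serpinh1, the collagen chaperone of the endoplasmic reticulum, had signals of 432.5, 608.8 and 477.2 at 0h, 1111.6, 1158.3 and 1028.9 at 3 weeks, 463.5, 534.9 and 619.4 at 6 weeks, and 635.3, 677.1 and 715.5 at 9 weeks. The 3-week arrays were above all others, as was the 3-week sum of the stellate cell markers, and the 6-week arrays overlapped 0h. The change was 1.11 at 3 weeks (adjusted p = 1.25e-06), and -1.01 from 3 to 6 weeks (1.84e-06), a fall that dropped under 2-fold in 5 of 23 alternatives, among them those without 3-week replicate 2 and without 6-week replicate 1. Averaging its probe sets gave 0.77 at 3 weeks.

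Fkbp5, an immunophilin of Hsp90 and steroid receptors, had signals of 278.0, 291.7 and 269.5 at 0h, 555.3, 580.6 and 637.5 at 3 weeks, 1113.8, 912.6 and 843.0 at 6 weeks, and 807.9, 956.7 and 910.3 at 9 weeks. Its 6-week and 9-week arrays overlapped and lay above the others. The change was 1.04, 1.71 and 1.62. The first dropped under 2-fold in 4 of 23 alternatives: 0.93 with log2(signal + 64), 0.94 with centred arrays, 0.83 with its probe sets averaged and 0.98 without 3-week replicate 3. Cryab, a small heat shock protein named as a crystallin, had signals of 114.5, 102.7 and 137.2 at 0h and 313.6, 301.4 and 314.9 at 9 weeks. Its 9-week arrays were above all 0h arrays, a change of 1.29 (adjusted p = 2.041e-06).

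Partners of Hsp90 took different courses. Fkbp4, the other steroid receptor immunophilin, had signals of 2053.5, 2038.3 and 1908.4 at 0h and 3784.7, 3839.4 and 3704.3 at 3 weeks. They were 2013.3, 1961.9 and 1935.0 at 6 weeks and 2299.8, 2235.9 and 2165.1 at 9 weeks. Its 3-week arrays were above all others, with a shift of 0.91 (adjusted p = 2.643e-10), then -0.93 from 3 to 6 weeks (5.548e-11). At 3 weeks Chordc1, an Hsp90 partner with zinc-binding domains, shifted up by 0.75, Stip1, which bridges Hsp70 and Hsp90, by 0.63, and Ppid, a cyclophilin, by 0.46. At 6 weeks the change of Stip1 was 0.07 and did not pass the test, that of Chordc1 was 0.26 and that of Ppid -0.22. At 9 weeks Chordc1 was shifted up by 0.45 and Stip1 by 0.28, and Ppid was shifted down by 0.30. Fkbp4 was shifted up by 0.16 at 9 weeks (adjusted p = 0.0104), a shift lost with centred arrays and without 0h replicate 3. Sugt1, a partner in kinetochore assembly, shifted down by 0.38 at 3 weeks (adjusted p = 0.00908), but averaging its probe sets gave 0.01 and the shift was lost without 0h replicate 2 or 3-week replicate 1. Cdc37, which brings kinases to Hsp90, shifted up by 0.20, 0.31 and 0.29 at the 3 times, the first lost with centred arrays. Unc45a, a myosin chaperone, changed by 0.00 at 3 weeks and shifted up by 0.31 and 0.24 later, the last lost in 4 alternatives, among them those without 0h replicate 1 or 9-week replicate 3. Ptges3, the p23 co-chaperone, shifted up by 0.23 and 0.15 at 3 and 6 weeks, both lost with centred arrays, and changed by -0.01 at 9 weeks.

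Hsf1, the heat shock factor, had signals of 239.6, 191.6 and 197.9 at 0h, 260.9, 264.7 and 253.4 at 3 weeks, 308.8, 348.0 and 328.3 at 6 weeks, and 348.6, 347.7 and 358.8 at 9 weeks. Its time groups were all above 0h. The change was 0.29 at 3 weeks (adjusted p = 0.059), 0.61 at 6 weeks (0.000349) and 0.71 at 9 weeks (8.592e-05). Grpel1, the exchange factor of Hspa9, shifted up by 0.37 at 6 weeks (4.704e-06) and 0.27 at 9 weeks. Related genes of the list went the other way. Hsf2, another heat shock factor, shifted down by 0.19 at 3 weeks and 0.30 at 9 weeks, and Hsbp1 by 0.25 and 0.36. Their changes of -0.10 and -0.18 at 6 weeks did not pass the test. Trap1, the mitochondrial Hsp90, shifted down by 0.22, 0.54 and 0.59 at the 3 times. How these falling shifts depend on the processing is not given here.

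**Figure D4:**
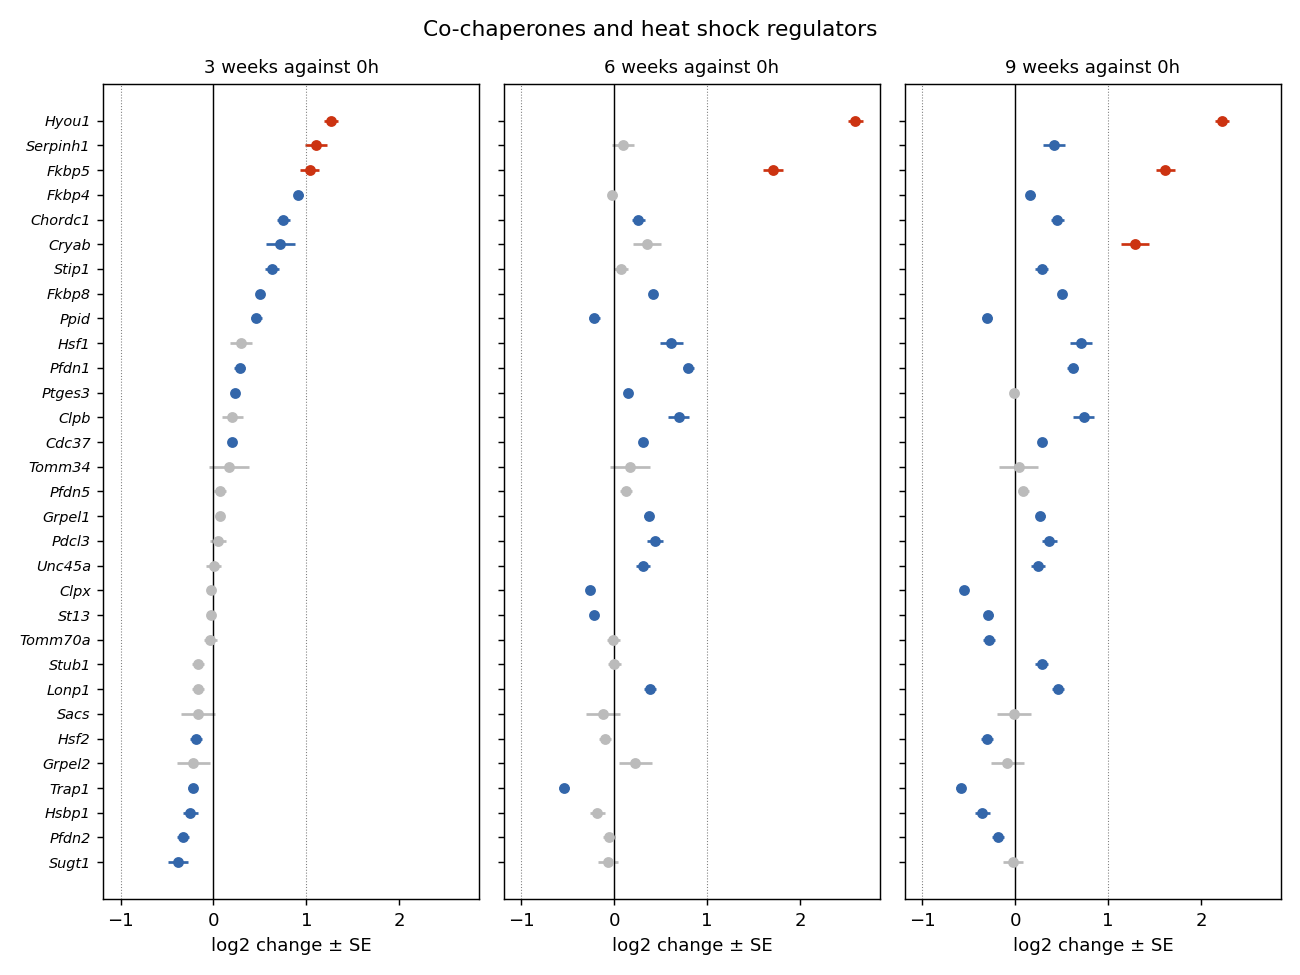
Log2 change against 0h (horizontal axis) of the 31 measured co-chaperones and regulators at each time. Points are fitted changes, bars the SE, red points passed adjusted p under 0.05 with at least 2-fold, blue points the adjusted p only, grey points neither; Hyou1 is furthest right at all 3 times, and Fkbp4, Chordc1 and Stip1 are further right at 3 weeks than at 6 weeks.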

How the data were processed

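Total RNA (Trizol, then RNeasy) was labelled as biotin cRNA, per the labels' protocols, and scanned signals were processed with GCOS 2.0, per the submitters' processing notes; its settings are not given in the sources used here. Per the file headers, the authors deposited 1 intensity (signal) column per array, in a workbook and in a series table that differ by at most 0.1. Computed here from those signals, the mean of each array after trimming 2% from each end was 500.2. The authors' deposited workbook also holds 9 log2 ratio columns against 0h per time, with no method stated. Arrays give no counts, so their number limits the precision. Array medians lay between 7.09 and 7.31 in log2, and arrays correlated at r = 0.967 to 0.977 within groups and 0.937 to 0.969 between them.

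Of 31099 probe sets, 57 were controls, 11134 carried no symbol and 23 several. The highest-mean probe set stood for each gene, and a gene was tested when its mean log2 value exceeded 6.516 (a signal of 75.5), the 40th percentile over the array. Log2(signal + 16) was modelled in limma 3.58.1 (R 4.3.3) with lmFit and trended eBayes, using a mean for each of the 4 groups (8 residual degrees of freedom, median residual SD 0.131). The same fit was also tested on simulated data. Symbols were checked against RefSeq: 64 of 65 were current and 1 was updated through a synonym. Same-numbered arrays deviated together at r = -0.039 to 0.126, so they were not treated as pairs. Figures were drawn with matplotlib 3.10.9.

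The members, lists and thresholds were chosen with earlier results of these data known. The text names, by rule, members called in any comparison, in each subfamily the member with the highest mean signal and the one with the largest change against 0h, a core set (Hspa1a, Hspa1b, Hspa1l, Hspa2, Hspa8, Hspa9, Hsp90aa1, Hsp90ab1, Hspb1, Hspb8, Hspd1, Hspe1, Hsph1, Dnaja1, Dnajb1, Dnajb6, Bag3 and Tcp1) and called co-chaperones. Hspa14, Hspb6, Hspb7, Hspb9, Bag2, the other Dnajc and Cct genes, Dnajb12, Fkbp4, Stip1, Chordc1, Ppid, Sugt1, Cdc37, Unc45a, Ptges3, Hsf1, Hsf2, Hsbp1, Trap1, Grpel1 and single markers were named after their values were seen. A planned count of protein motifs was not run.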

Additional observations from a re-analysis of the deposited data

Results flagged for a closer look

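Between 3 and 6 weeks the change against 0h differed for 4 chaperone genes by a test of the difference itself, at least 2-fold. The difference, 6 weeks minus 3 weeks, was 1.23 for Hspb1, 1.27 for Hspb8, 1.04 for Dnajb11 and 1.23 for Dnajc17. Hspb1 was above 0h at both times, Hspb8 at 6 weeks alone by the adjusted p, and Dnajb11 shifted down at 3 weeks and up at 6 weeks. For Dnajc17 the difference was 0.75 without 3-week replicate 2, whose signal was 23.1 against 97.4 and 81.1 on the other arrays.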

How the results depend on the processing

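The number of chaperone genes called was recomputed under each alternative, in the order 3, 6 and 9 weeks against 0h, 6 against 3 weeks and 9 against 6 weeks, where it was 2, 2, 3, 4 and 0. A 1.5-fold threshold gave 6, 10, 9, 7 and 1, no fold threshold 24, 25, 28, 25 and 18, and a test against a 1.2-fold change 6, 11, 10, 13 and 2. Averaging a gene's probe sets gave 1 at 3 weeks, where Hsp90aa1 was lost, and 2 over the course by the F test in place of 4. Without the filter 1 gene, Hspb3, was called from 6 to 9 weeks and also fell at 9 weeks against 0h. Without 0h replicate 1, Hspb7 fell at 3, 6 and 9 weeks. Leaving out each array in turn gave 2 to 3, 2 to 3, 3 to 4, 3 to 4 and 0, and 4 to 5 over the course. With the replicate block the counts were unchanged at 2, 2, 3, 4 and 0, and 6 of 12 arrays correlated best with their own number. The samples share only a number, and no call at 2-fold changed. Among the shifts of named genes, those of Bag3 and Dnajc8 at 3 weeks and Dnajc11 at 6 weeks no longer passed. By adjusted p alone, 16 members were then higher and 5 lower at 3 weeks, in place of 18 and 6. From 6 to 9 weeks 11 were higher and 7 lower, in place of 10 and 8. The median-centred, quantile, log2(signal + 1), stricter filter, no-trend, 2-group and series-table settings kept every count within 1.5 times. Calls of Dnajc17 were lost with log2(signal + 64). With the stricter filter, and with a gene's probe sets averaged, 2 genes were called at 9 weeks against 0h in place of 3. From 3 to 6 weeks 3 were called in place of 4 in both settings. Changes that reversed sign were those of Bag3 with its probe sets averaged (-0.102, -0.09 and -0.073 at 3, 6 and 9 weeks), Sugt1 at 3 weeks (0.007) and Hsph1 from 6 to 9 weeks (-0.05) in the same setting, and, with quantile normalization, Hspd1 from 3 to 6 weeks (0.046) and Hspe1 at 9 weeks (0.072). The cause was not tested. Dim probe sets limit what can be said of Dnajc17, Hspb7 and the 10 members below the filter.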
